A study of Mus musculus with 3 samples.

Results

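The genes described here mark T cells or carry the signal of the T cell receptor, and they were followed in cultured mouse spleen cells kept for 3 h with urine or with PBS. They were chosen by name as a set of 36 genes out of the 36609 genes on the array: 7 of the receptor complex and its co-receptors, 10 further surface receptors, 9 signalling proteins, 7 transcription factors and 3 genes of regulatory T cells. Each gene was read from 1 probe, the one measured above background on most arrays and, among equals, the brightest.

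The spleen cells of all 3 cultures came from male MRL/MpJ mice aged 6 months, whose Fas gene is intact. The cells were given urine from MRL/MpJ-Faslpr/lpr donors, called lpr urine here, urine from MRL/MpJ donors, or PBS, each in 1 culture. Donors of lpr urine have no working Fas, a death receptor of lymphocytes, and are used as a model of lupus. Each urine was a pool from 6 males aged 6 months, spun and passed through a 0.22 µm filter, and each well held 500 µL. Each condition was measured on 1 single-colour array, all on 1 slide, so no difference below has a replicate check, a standard error or a p-value, and treatment, culture well and array cannot be told apart. How much urine went into a well and how many spleens were used is not stated in the labels.

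A T cell recognises antigen with a receptor whose invariant CD3 and zeta chains carry tyrosine motifs (ITAMs). The co-receptors CD4 and CD8 bring the kinase Lck to these motifs, the phosphorylated motifs bind the kinase Zap70, and Zap70 phosphorylates the adaptors Lat and Slp-76 (Lcp2), which pass the signal on to calcium, Ras and NF-kB. Tcf7, Lef1, Satb1 and Bcl11b help to keep T cell identity, the interleukin-7 receptor keeps resting T cells alive, S1pr1 lets them leave lymphoid organs, and Foxp3 directs regulatory T cells, which restrain other T cells.

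Of the 79 probes for these genes, 4 are shown because their sequence covers a part of the protein named above. Their capitals mark codons found in the reading frame without stop codons. In Cd3d and Cd247 they span a tyrosine codon, 2 further codons and a leucine codon, the repeated unit of an ITAM. In Lat they span a tyrosine codon, 1 further codon and an asparagine codon, a type of site that binds Grb2-family adaptors once phosphorylated, and in Bcl11b a cysteine codon, 2 further codons and a cysteine codon of a zinc finger. Positions are on mouse build mm9 as the files give them. The Cd3d probe (chr9:44794171-44794402, plus strand) and the Cd247 probe (chr1:167786567-167787585, plus strand) are 60 bases long but span 232 and 1019 bases of the genome, and so join separate stretches of it. The Lat probe (chr7:133507719-133507778, minus strand) and the Bcl11b probe (chr12:109153847-109153906, minus strand) are those that gave these genes their values below.
Cd3d: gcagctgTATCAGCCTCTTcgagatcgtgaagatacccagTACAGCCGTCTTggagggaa
Cd247: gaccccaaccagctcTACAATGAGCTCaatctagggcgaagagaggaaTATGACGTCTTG
Lat: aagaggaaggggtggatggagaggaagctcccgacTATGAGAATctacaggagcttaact
Bcl11b: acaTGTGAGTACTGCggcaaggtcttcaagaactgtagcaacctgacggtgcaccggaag

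The processed signal, an intensity after background subtraction, had a 75th percentile of 75.7 with lpr urine, 86.6 with MRL/MpJ urine and 158 with PBS. The scaled signal of a probe is its processed signal divided by that percentile, and a log2 difference is that of 2 scaled signals. A gene was counted as higher or lower where it differed at least 2-fold and was well above background on both arrays. The 8 E1A spike-ins, RNAs added in fixed amount at labelling, put the arrays closer together than this percentile does: scaling to them instead moves every log2 difference by -0.99 for lpr urine against PBS, by -0.91 for MRL/MpJ urine against PBS and by -0.08 between the urines. A difference from PBS between 0 and these sizes therefore changes sign with the scaling. All 36 genes were well above background and none was saturated on any of the 3 arrays, with processed signals between 31.9 and 12741.

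The genes of the T cell receptor itself differed little from PBS after percentile scaling, while the 3 regulatory T cell genes and the receptors Cd28, Il7r, S1pr1 and Cd27 were at least 2-fold lower with both urines on their chosen probes. With lpr urine, 3 of the 36 genes were at least 2-fold higher than with PBS (Cd69, Lat and Skap1), 9 were at least 2-fold lower (Ikzf2, S1pr1, Txk, Cd28, Il7r, Il2ra, Foxp3, Ubash3a and Cd27) and 24 lay within 2-fold. Of these 12 genes, 7 had several measured probes. All of them were past 2-fold in the same direction for Cd28, Il7r and Ikzf2, whereas Cd69, Skap1, Txk and Il2ra had other measured probes that did not reach it. Lat, S1pr1, Foxp3, Ubash3a and Cd27 rested on 1 measured probe each. Among all 19368 genes measured on both of these arrays, 18.5% were at least 2-fold higher and 12% at least 2-fold lower, beside 8.33% higher and 25% lower among the T cell genes. With MRL/MpJ urine the same 3 genes were higher, 8 of the same 9 were lower and 25 lay within 2-fold, with Ubash3a 1.90-fold lower. The background there was 16.9% higher and 11.1% lower among 19639 genes, against 8.33% and 22.2% of the T cell genes. The comparisons share the PBS array, so their likeness is no independent repeat. The median log2 difference of the 36 genes was -0.14 with lpr urine and -0.17 with MRL/MpJ urine, beside 0.15 and 0.13 for all measured genes. Under spike-in scaling none of the 36 was 2-fold higher and 20 were 2-fold lower with either urine, beside backgrounds of 5.6% higher and 44% lower with lpr urine and 5.58% higher and 41% lower with MRL/MpJ urine. At 1.5-fold under percentile scaling, 15 of the 36 were lower with either urine, beside 22.9% of all measured genes with lpr urine and 22.5% with MRL/MpJ urine.

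**Figure D1:**
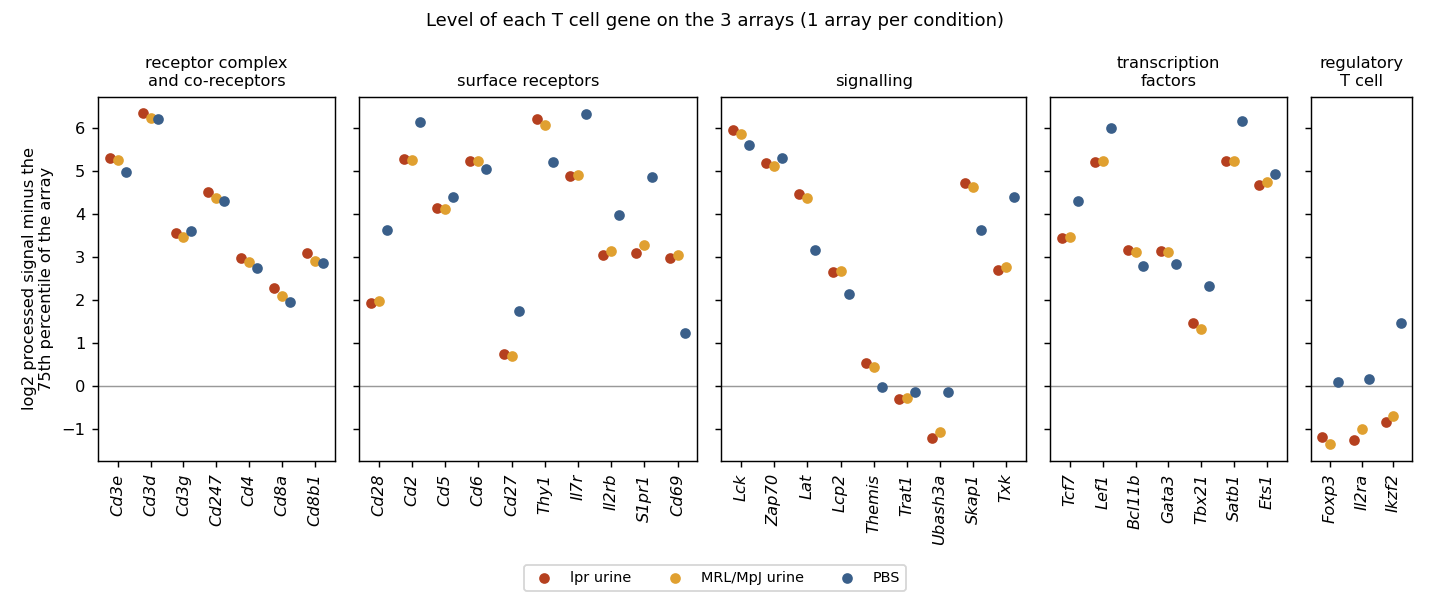
Level of each T cell gene on the 3 arrays, as log2 processed signal minus the 75th percentile of the array, with genes grouped by role and 1 point per array (lpr urine, MRL/MpJ urine, PBS, left to right). The points of the 2 urines lie close together for all 36 genes, and the PBS point stands apart for genes such as Cd28, S1pr1, Txk and Ikzf2; levels of different genes come from different probes and are not comparable.

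In the receptor complex, Cd3d, which encodes the delta chain of CD3, had scaled signals of 81.6 with lpr urine, 75.9 with MRL/MpJ urine and 74.9 with PBS. Cd3e, the epsilon chain, had 39.4 with lpr urine, 38.1 with MRL/MpJ urine and 31.6 with PBS. Both were close on all 3 arrays and lowest with PBS. The co-receptor gene Cd4 had scaled signals of 7.86 with lpr urine, 7.39 with MRL/MpJ urine and 6.73 with PBS, and Cd8a, the alpha chain of CD8, had 4.85 with lpr urine, 4.30 with MRL/MpJ urine and 3.88 with PBS. None of the 7 genes reached 2-fold with either urine. With lpr urine their log2 differences from PBS ran from -0.05 for Cd3g, the gamma chain, to 0.32 for Cd8a, with a median of 0.22. With MRL/MpJ urine they ran from -0.13 for Cd3g to 0.27 for Cd3e, with a median of 0.07. Cd247, which encodes the zeta chain, and Cd8b1, the beta chain of CD8, lay inside these ranges with 0.20 and 0.22 for lpr urine.

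The sign of these small differences rests on the scaling. Under percentile scaling 6 of the 7 were above 0 with either urine, whereas under spike-in scaling all 7 were below 0, with log2 differences from -1.04 to -0.67 with lpr urine and from -1.04 to -0.63 with MRL/MpJ urine. Their spread within a comparison, on the chosen probes, was the same under either scaling, because a scaling moves all genes by 1 amount. In bulk RNA, fewer cells of a type and less RNA per cell cannot be told apart. The Cd3d probe printed above, whose sequence covers both tyrosine motifs, gave log2 differences of 0.14 with lpr urine and 0.06 with MRL/MpJ urine, close to the 0.12 and 0.02 of the brighter Cd3d probe. Probes for Cd247 disagreed in sign: the printed probe gave -0.37 with lpr urine and -0.27 with MRL/MpJ urine, and the 2 others that were not chosen gave -0.35 and -0.77 with lpr urine and -0.21 and -0.58 with MRL/MpJ urine, against 0.20 and 0.07 for the brightest. Those for Cd4 disagreed too. The chosen probe gave 0.22 with lpr urine and 0.14 with MRL/MpJ urine, a second RefSeq mRNA probe -0.39 and -0.32, and the remaining probe 0.12 and 0.44.

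Of the 10 other surface receptors, Cd28, Il7r, S1pr1 and Cd27 were at least 2-fold lower with both urines on their chosen probes, Cd69 was higher on its chosen probe, and 5 lay within 2-fold. Cd28, the co-stimulatory receptor that accompanies antigen recognition, had scaled signals of 3.82 with lpr urine, 3.94 with MRL/MpJ urine and 12.3 with PBS. It was 3.23-fold lower with lpr urine and 3.13-fold lower with MRL/MpJ urine. Il7r, the alpha chain of the receptor for the survival cytokine interleukin-7, had 29.4 with lpr urine, 30.3 with MRL/MpJ urine and 80.9 with PBS. The PBS culture was thus the high one, and Il7r was 2.75-fold lower with lpr urine and 2.67-fold lower with MRL/MpJ urine. A second Il7r probe had log2 differences of -1.67 with lpr urine and -1.49 with MRL/MpJ urine, past 2-fold as well.

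S1pr1, the sphingosine 1-phosphate receptor that T cells use to leave lymphoid organs, had scaled signals of 8.52 with lpr urine, 9.82 with MRL/MpJ urine and 29.3 with PBS. It was 3.43-fold lower with lpr urine and 2.98-fold lower with MRL/MpJ urine. Cd28, Il7r and S1pr1 stayed at least 2-fold lower with both urines under every scaling and background correction tried. The mean over measured probes was also past 2-fold lower for Il7r with both urines and for Cd28 with lpr urine. Probe choice could not be tried for S1pr1, which has 1 probe. Nor could it for Cd28 with MRL/MpJ urine, where only 1 of its probes counted as measured. Cd27, a co-stimulatory receptor of the tumour necrosis factor receptor family, had 1.68 with lpr urine, 1.62 with MRL/MpJ urine and 3.36 with PBS. Its log2 differences of -1.002 with lpr urine and -1.05 with MRL/MpJ urine lay at the threshold, and quantile normalisation put it within 2-fold.

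Cd69, an early activation marker that holds S1pr1 inside the cell, cannot be given 1 direction here. The brightest probe (chr6:129223547-129223606), listed for an Ensembl transcript, had scaled signals of 7.88 with lpr urine, 8.26 with MRL/MpJ urine and 2.35 with PBS, which is 3.36-fold and 3.52-fold higher with lpr and MRL/MpJ urine. The probe listed for the RefSeq mRNA (chr6:129217697-129217756) had processed signals of 239 with lpr urine, 184 with MRL/MpJ urine and 447 with PBS, and log2 differences from PBS of 0.16 with lpr urine and -0.41 with MRL/MpJ urine. Which exon or intron of Cd69 each probe lies in was not looked up, since no annotation on mm9 was used here.

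Among the receptors within 2-fold, Thy1, a surface glycoprotein of mouse T cells, was the one nearest the upper threshold. Its scaled signals were 73.8 with lpr urine, 67.6 with MRL/MpJ urine and 37.4 with PBS, log2 differences of 0.98 with lpr urine and 0.85 with MRL/MpJ urine that became -0.01 and -0.05 under spike-in scaling. Cd2, an adhesion receptor, and Il2rb, the beta chain shared by the interleukin-2 and interleukin-15 receptors, lay below PBS with log2 differences of -0.85 and -0.93 with lpr urine and -0.87 and -0.83 with MRL/MpJ urine. With both urines Cd2 passed 2-fold lower under array median, quantile, normexp and spike-in processing, and Il2rb under array median, normexp and spike-in processing. The second Il2rb probe gave -0.48 with lpr urine and -0.57 with MRL/MpJ urine. The scavenger receptor family members Cd5 and Cd6, which dampen or tune receptor signalling, differed by -0.25 and 0.20 with lpr urine and by -0.28 and 0.20 with MRL/MpJ urine. Neither reached 1.5-fold, and under spike-in scaling Cd6 lay at -0.79 with lpr urine and -0.71 with MRL/MpJ urine. The median of the 10 receptors was -0.89 with lpr urine and -0.85 with MRL/MpJ urine, set beside 0.22 and 0.07 for the 7 receptor complex genes.

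The 9 genes of signalling proteins showed no shared direction: Lat and Skap1 were at least 2-fold higher with both urines, Txk was lower with both, Ubash3a was lower with lpr urine, and the rest lay within 2-fold. Lck, the kinase that starts receptor signalling, had scaled signals of 62.4 with lpr urine, 58.1 with MRL/MpJ urine and 49.2 with PBS. Zap70, the kinase that docks on the tyrosine motifs, had 36.5 with lpr urine, 34.7 with MRL/MpJ urine and 39.8 with PBS. The log2 differences were small for both: 0.34 and 0.24 for Lck, and -0.12 and -0.20 for Zap70, with lpr and MRL/MpJ urine. Under spike-in scaling Lck lay at -0.65 with lpr urine and -0.67 with MRL/MpJ urine.

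Lat, the membrane adaptor phosphorylated by Zap70, had scaled signals of 22.3 with lpr urine, 20.7 with MRL/MpJ urine and 8.97 with PBS. On the probe printed above, its only one, it was 2.48-fold higher with lpr urine and 2.31-fold higher with MRL/MpJ urine, but array median scaling, normexp and spike-in scaling put it within 2-fold, with log2 differences of 0.32 with lpr urine and 0.30 with MRL/MpJ urine under spike-in scaling. Lat thus lay above PBS on either scale and above the receptor complex genes, relative to whose median its log2 difference was 1.10 with lpr urine and 1.14 with MRL/MpJ urine. Skap1, an adaptor that links the receptor to integrin adhesion, had processed signals of 2003 with lpr urine, 2164 with MRL/MpJ urine and 1965 with PBS on its brightest probe. These were alike before scaling, and after it the log2 differences were 1.08 with lpr urine and 1.00 with MRL/MpJ urine. Of the 5 other Skap1 probes, 4 gave log2 differences between -0.75 and -0.58 with lpr urine and between -0.80 and -0.45 with MRL/MpJ urine, so its direction depends on the probe.

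Txk, a Tec-family kinase of T cells, had scaled signals of 6.52 with lpr urine, 6.86 with MRL/MpJ urine and 21.2 with PBS. It was 3.26-fold lower with lpr urine and 3.09-fold lower with MRL/MpJ urine, while a second Txk probe gave log2 differences of -0.22 with lpr urine and -0.53 with MRL/MpJ urine. Ubash3a, a phosphatase-like protein that restrains receptor signalling, was dim, with processed signals of 33.0 with lpr urine, 41.5 with MRL/MpJ urine and 143 with PBS. PBS was again the high array, with a 2.09-fold lower scaled signal with lpr urine and a 1.90-fold lower one with MRL/MpJ urine, on either side of the threshold. With normexp background correction neither reached 2-fold, with log2 differences of -0.51 with lpr urine and -0.47 with MRL/MpJ urine. The 2 urine arrays differed in this gene by a log2 difference of -0.14, so the count that separates them rests on the threshold.

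The remaining signalling genes lay within 2-fold. Lcp2, the adaptor Slp-76, differed by 0.52 with lpr urine and 0.55 with MRL/MpJ urine, and a probe that joins 2 stretches of the genome gave 0.51 with lpr urine and 0.61 with MRL/MpJ urine. Under spike-in scaling Lcp2 lay at -0.47 with lpr urine and -0.36 with MRL/MpJ urine. Another Lcp2 probe, listed for an Ensembl transcript, gave -1.51 with lpr urine and -1.09 with MRL/MpJ urine. Themis, a regulator of receptor signal strength in the thymus, differed by 0.56 and 0.45, and Trat1, an adaptor associated with the receptor, by -0.16 and -0.15, with lpr and MRL/MpJ urine. Under spike-in scaling Themis lay at -0.43 with lpr urine and -0.45 with MRL/MpJ urine. Of the 3 Themis probes measured on all 3 arrays, 2 lay above PBS under percentile scaling with both urines. The other lay below it, at -0.44 with lpr urine and -0.31 with MRL/MpJ urine. The median of the 9 genes was 0.34 with lpr urine and 0.24 with MRL/MpJ urine, and it turned to -0.65 with lpr urine and -0.67 with MRL/MpJ urine under spike-in scaling.

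**Figure D2:**
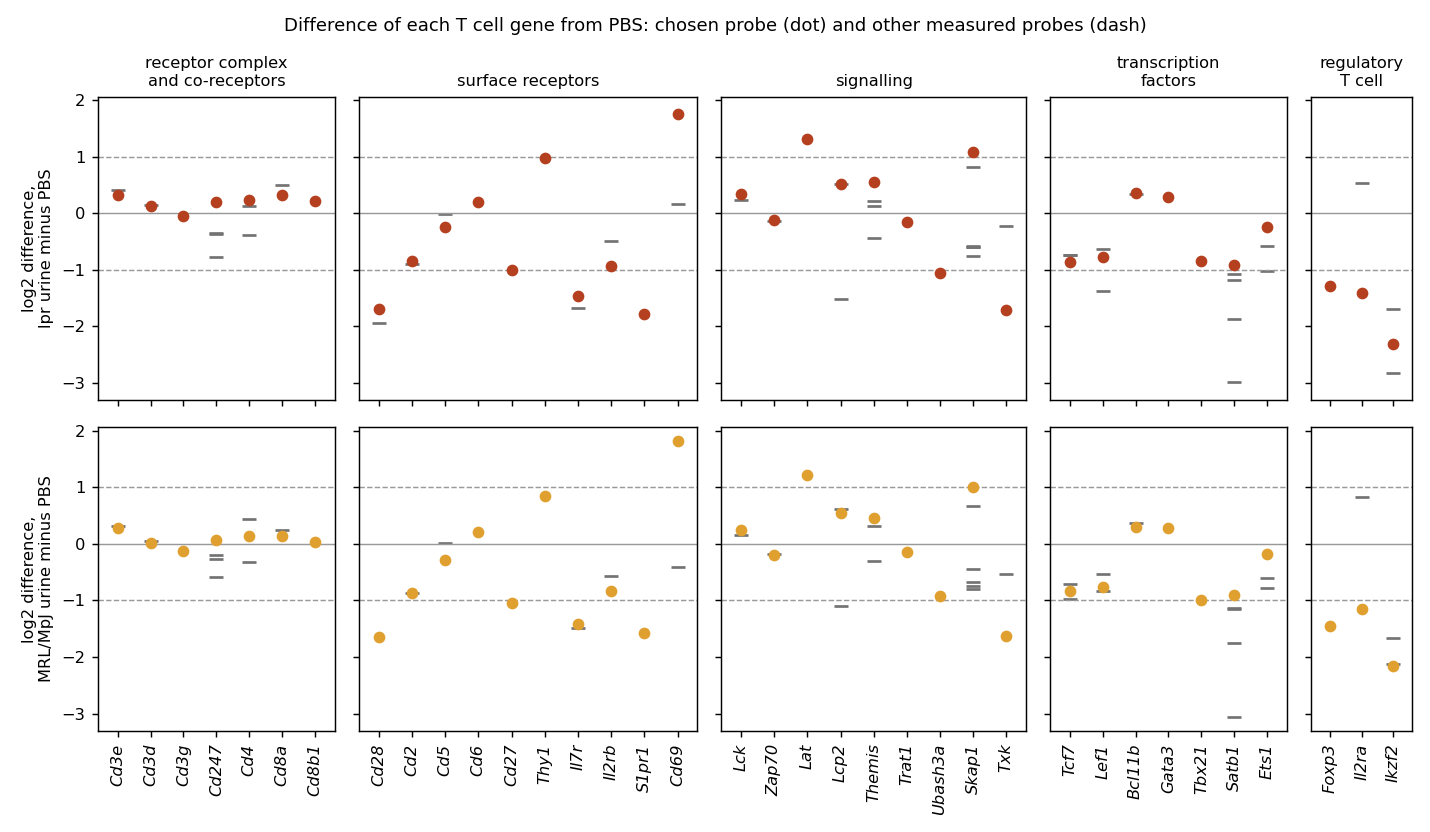
Log2 difference from PBS (75th percentile scaling) of each T cell gene with lpr urine (upper row) and MRL/MpJ urine (lower row); dots are the chosen probe, dashes are other probes of the gene measured on both arrays, and dashed lines mark 2-fold. The probes of Satb1, Ikzf2 and Il7r all lie below 0, whereas those of Cd69, Skap1, Lcp2 and Il2ra lie far apart; spike-in scaling would move the upper row by -0.99 and the lower row by -0.91.

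None of the 7 transcription factors reached 2-fold on its chosen probe under percentile scaling, and Tcf7, Lef1, Satb1 and Tbx21 lay below PBS by similar amounts. Under spike-in scaling 5 of the 7 were at least 2-fold lower with either urine, beside 44% of all measured genes with lpr urine and 41% with MRL/MpJ urine. Relative to the receptor complex genes 3 were lower with lpr urine and 1 with MRL/MpJ urine, beside 17.1% and 12.7% of all measured genes. Under percentile scaling the median of the 7 was -0.78 with lpr urine and -0.76 with MRL/MpJ urine. Tcf7, which encodes the T cell factor TCF-1, had scaled signals of 10.9 with lpr urine, 11.1 with MRL/MpJ urine and 19.7 with PBS. Lef1, its close relative, had 37.4 with lpr urine, 37.9 with MRL/MpJ urine and 64.2 with PBS. In both genes the 2 urine cultures were alike and below PBS, with log2 differences of -0.86 and -0.83 for Tcf7 and -0.78 and -0.76 for Lef1 with lpr and MRL/MpJ urine.

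Satb1, a chromatin organiser of developing T cells, had scaled signals of 37.8 with lpr urine, 38.0 with MRL/MpJ urine and 71.5 with PBS, a log2 difference of -0.92 with lpr urine and -0.91 with MRL/MpJ urine. All 4 other Satb1 probes were past 2-fold lower with both urines, from -1.08 to -2.99 with lpr urine and from -1.14 to -3.06 with MRL/MpJ urine, so that its brightest probe showed the smallest difference of the 5. That probe passed 2-fold under array median scaling (-1.31 with lpr urine and -1.28 with MRL/MpJ urine), quantile normalisation (-1.25 and -1.21) and normexp (-1.25 and -1.16) as well as spike-in scaling. Tbx21, which encodes T-bet of type 1 T helper and NK cells, had 2.78 with lpr urine, 2.52 with MRL/MpJ urine and 5.03 with PBS, and was 1.81-fold and 1.99-fold lower with lpr and MRL/MpJ urine. Ets1, a factor of resting lymphocytes, differed by -0.25 with lpr urine and -0.19 with MRL/MpJ urine, and its 2 other probes gave -0.59 and -1.03 with lpr urine and -0.61 and -0.78 with MRL/MpJ urine.

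Bcl11b, the zinc finger factor of T lineage commitment, and Gata3, needed for T cell development and type 2 helper cells, were the 2 factors above PBS under percentile scaling. Bcl11b had scaled signals of 8.93 with lpr urine, 8.64 with MRL/MpJ urine and 6.99 with PBS on the probe printed above. Gata3 had 8.80 with lpr urine, 8.73 with MRL/MpJ urine and 7.23 with PBS. Their log2 differences of 0.35 and 0.28 with lpr urine and 0.31 and 0.27 with MRL/MpJ urine lay near those of the receptor complex genes and, like them, lay below 0 under spike-in scaling.

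All 3 genes of regulatory T cells were at least 2-fold lower with both urines on their chosen probes. Foxp3, the factor that defines these cells, had processed signals of 33.3 with lpr urine, 33.9 with MRL/MpJ urine and 169 with PBS. Scaled to each array these became 0.440 with lpr urine, 0.392 with MRL/MpJ urine and 1.07 with PBS, which made Foxp3 2.44-fold lower with lpr urine and 2.74-fold lower with MRL/MpJ urine. Ikzf2, which encodes Helios, a factor of many regulatory T cells, had processed signals of 42.3 with lpr urine, 53.8 with MRL/MpJ urine and 439 with PBS. On the chosen probes it showed the largest difference of the 36 genes, 4.99-fold lower with lpr urine and 4.49-fold lower with MRL/MpJ urine. Its other 2 probes were past 2-fold lower too, with log2 differences of -1.70 and -2.82 with lpr urine and -1.66 and -2.13 with MRL/MpJ urine. The chosen probe is listed for an Ensembl transcript, and the probe at -1.70 and -1.66 for the RefSeq mRNA. By the RefSeq mRNA probe, Ikzf2 differed less with lpr urine than S1pr1 did (-1.78), so its rank depends on the probe.

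Il2ra, the alpha chain of the interleukin-2 receptor (CD25), had processed signals of 31.9 with lpr urine, 43.5 with MRL/MpJ urine and 176 with PBS. It was 2.65-fold lower with lpr urine and 2.23-fold lower with MRL/MpJ urine, but a second probe, listed for an Ensembl transcript, gave log2 differences of 0.54 with lpr urine and 0.83 with MRL/MpJ urine, so the direction of Il2ra depends on the probe. Foxp3 and Il2ra are dim on the urine arrays, and normexp background correction brought both within 2-fold: Foxp3 to log2 differences of -0.69 with lpr urine and -0.77 with MRL/MpJ urine, and Il2ra to -0.67 with lpr urine and -0.62 with MRL/MpJ urine. The mean over its probes was -0.44 with lpr urine and -0.16 with MRL/MpJ urine for Il2ra. Ikzf2 stayed past 2-fold under every setting tried.

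A further scale was the median of the 7 receptor complex genes, which removes any shift that a scaling applies to all genes alike. Relative to it, 2 of the 36 genes were 2-fold higher with lpr urine and 14 were 2-fold lower, against 14.1% and 17.1% of all measured genes. With MRL/MpJ urine 2 were higher and 9 lower, against 15.5% and 12.7%. The 7 genes that set this scale are among the 36, and their own median is 0 by construction. Compared with percentile scaling it moved every gene by -0.22 with lpr urine and by -0.07 with MRL/MpJ urine. The counts of 14 and 9 therefore do not by themselves show a difference between the urines. On this scale Ikzf2 lay at -2.53 with lpr urine and -2.24 with MRL/MpJ urine, Foxp3 at -1.50 with lpr urine and -1.53 with MRL/MpJ urine, and Cd28 at -1.91 with lpr urine and -1.72 with MRL/MpJ urine. These genes were thus lower relative to the receptor's own genes in the same RNA. The values are the same under percentile, array median and spike-in scaling, since each of these shifts all genes by 1 amount. Quantile normalisation and normexp move genes unequally and were not tried on this scale.

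**Figure D3:**
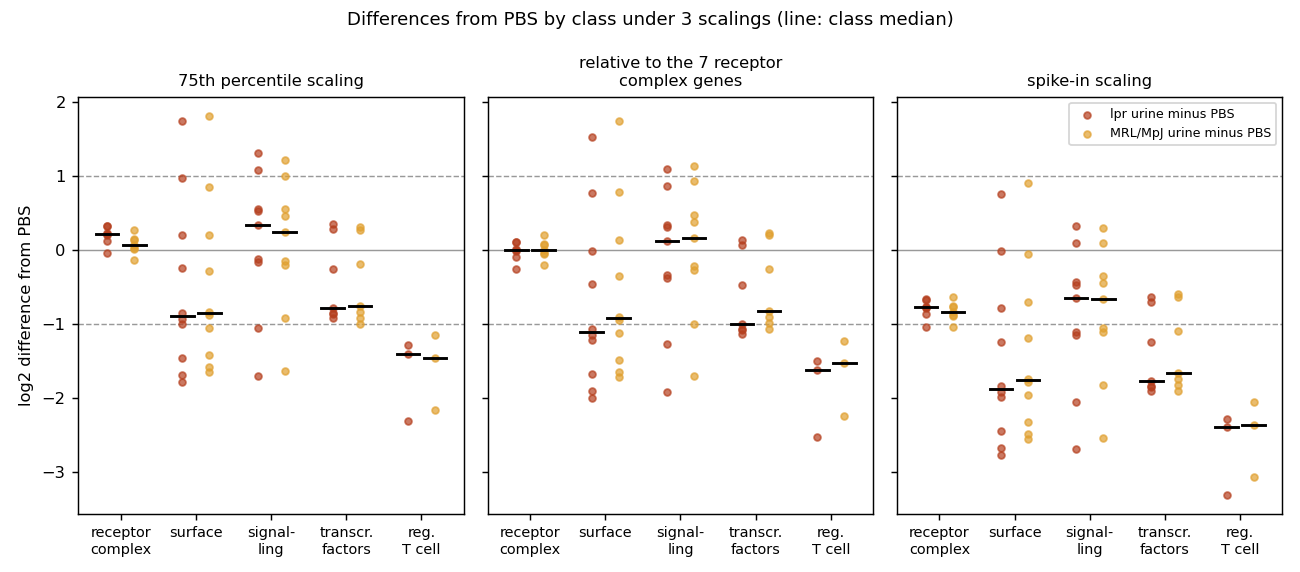
Log2 differences from PBS of the 36 T cell genes by class, for lpr urine and MRL/MpJ urine, under 75th percentile scaling, relative to the median of the 7 receptor complex genes, and under spike-in scaling; each point is a gene, black lines are class medians and dashed lines mark 2-fold. The order of the class medians is the same in the 3 panels for a given urine, with regulatory T cell genes lowest, while all points move together from panel to panel.

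With lpr urine against MRL/MpJ urine, 0 of the 36 genes reached 2-fold in either direction, beside 0.34% higher and 0.06% lower among 20012 measured genes. Their log2 differences ran from -0.25 for Il2ra to 0.18 for Cd8b1, with a median of 0.03. The scanner software's own error for such a difference, which covers 1 spot's measurement only, was 0.20 to 0.21. Within it lay 34 of the 36, the 2 outside being Il2ra and S1pr1 (-0.20). Repeated spots of a probe within an array gave a standard deviation of 0.05 to 0.25 for such a difference, depending on the signal. Beyond 2 of these standard deviations lay 4 of the 36. Neither scale covers a spread between cultures. On their chosen probes all 7 receptor complex genes lay above 0, by 0.05 to 0.18, under percentile scaling. Under spike-in scaling 6 of 7 did so, and the 7 ran from -0.04 to 0.10 with a median of 0.02. Of the probes measured on all 3 arrays, 3 of 4 for Cd247 and 2 of 3 for Cd4 lay below 0 under percentile scaling. Foxp3 lay at 0.17 and Ikzf2 at -0.15.

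**Figure D4:**
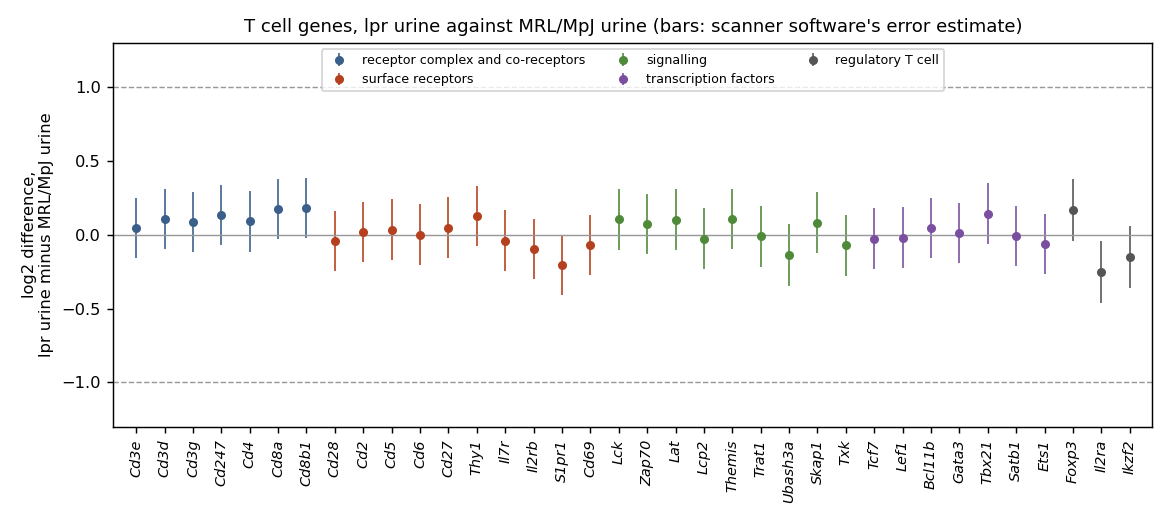
Log2 difference of each T cell gene with lpr urine minus MRL/MpJ urine (75th percentile scaling), coloured by class; bars are the scanner software's error estimate for the 2 spots, not a spread over replicates, and dashed lines mark 2-fold. All 36 genes lie between -0.25 and 0.18.

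Further genes of the same processes were counted from 3 lists, to be read beside the 18.5% higher and 12% lower of all measured genes with lpr urine and the 16.9% higher and 11.1% lower with MRL/MpJ urine. Of 36 other genes of the receptor pathway, 4 were at least 2-fold higher and 6 lower with lpr urine, with a median of 0.13, and 3 were higher and 6 lower with MRL/MpJ urine, with a median of 0.06. Under spike-in scaling these medians turned to -0.86 with lpr urine and -0.85 with MRL/MpJ urine. Cblb, a ubiquitin ligase that restrains receptor signalling, had log2 differences of -2.20 with lpr urine and -2.10 with MRL/MpJ urine, and Orai1, the calcium channel opened by receptor signals, -1.88 with lpr urine and -1.79 with MRL/MpJ urine. Of 12 other genes associated with regulatory T cells, 2 were higher and 6 lower with lpr urine. In MRL/MpJ urine 11 were measured, with 2 higher and 6 lower. Lrrc32, the surface anchor of latent TGF-beta, had log2 differences of -4.56 with lpr urine and -4.65 with MRL/MpJ urine. The co-inhibitory receptor Ctla4 had -2.79 with lpr urine and -2.24 with MRL/MpJ urine, and Gpr83, a receptor of regulatory T cells, had 2.28 with lpr urine and 2.39 with MRL/MpJ urine. Other cells express several of these genes. Among 9 homing genes, 1 was higher and 3 were lower with either urine: Ccr7, the lymph node homing receptor, had -2.42 with lpr urine and -2.29 with MRL/MpJ urine, and Klf2, the factor that activates S1pr1, -1.76 with lpr urine and -1.67 with MRL/MpJ urine.

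Median differences of the markers of several other spleen cells lay above 0 under percentile scaling, with 1 to 3 markers of a list at least 2-fold higher. Among all measured genes 18.5% were higher with lpr urine and 16.9% with MRL/MpJ urine. The dendritic cell list had 0 markers higher and 1 lower with either urine. The part of these cells in the results was not tested. The median log2 difference from PBS of the 6 B cell markers was 0.92 with lpr urine and 0.96 with MRL/MpJ urine, and that of the 5 T cell markers, which are themselves among the 36 genes, 0.22 with lpr urine and 0.14 with MRL/MpJ urine. With lpr urine the median was 0.90 for the 5 neutrophil markers, 0.88 for the measured 5 of 6 monocyte and macrophage markers, 0.74 for the 5 erythroid markers, 0.01 for the 5 NK cell markers and -0.12 for the measured 4 of 5 dendritic cell markers. With MRL/MpJ urine the same lists had 0.76, 0.82, 0.61, 0.01 and -0.04. Under spike-in scaling the B cell median was -0.07 with lpr urine and 0.05 with MRL/MpJ urine, and the T cell median -0.77 with both. With lpr urine it was then -0.09 for neutrophils, -0.11 for monocytes and macrophages, -0.25 for erythroid cells, -0.98 for NK cells and -1.11 for dendritic cells, and with MRL/MpJ urine -0.14 for neutrophils, -0.09 for monocytes and macrophages, -0.29 for erythroid cells, -0.89 for NK cells and -0.95 for dendritic cells. The summed processed signal of the T cell markers was 11015 with lpr urine, 11853 with MRL/MpJ urine and 20351 with PBS, and that of the B cell markers 22898 with lpr urine, 27560 with MRL/MpJ urine and 31372 with PBS. In the B cell sum, 1 marker alone gave 6439 with lpr urine, 7948 with MRL/MpJ urine and 16914 with PBS. It was the only B cell marker below PBS under percentile scaling, at -0.34 with lpr urine and -0.23 with MRL/MpJ urine. The B cell sum therefore does not stand for the whole list. None of the 4 stromal markers was well above background on both arrays of a comparison with PBS.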

How the data were processed

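Total RNA of cultured spleen cells was hybridised to 3 single-colour (Cy3) Agilent arrays, 1 per condition. The deposited values are, per the file headers, intensity read with Agilent Feature Extraction 12.0.3.1 (also named in the submitters' processing notes), with probes placed on mouse build mm9. The processed signal is background-subtracted within the array and not normalised between arrays. Spots of a probe were averaged after removal of outlier flags, which kept 56599 of 56605 probes and 36609 genes; levels are log2 of the processed signal relative to the 75th percentile on that array. Calls need a 2-fold difference and both arrays well above background. With 1 array per group no test was run, and the number of arrays limits the precision. Settings tried were the array median, spike-in and quantile scaling, normexp background correction (limma 3.58.1, R 4.3.3, offset 50), other probes, other filters and 1.5-fold. The RefSeq mRNA probes and the receptor complex as scale were added after seeing the data. All 36 genes are named; other genes come from 3 lists, at most 4 per list and comparison. Genes and lists were chosen with earlier results of these data known. The scripts were checked on simulated data. Python 3.11.15 and pandas 2.3.3 were used.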

Additional observations from a re-analysis of the deposited data

Results flagged for a closer look

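For 2 probes outside the main measurement, the urines lay on opposite sides of PBS, and the difference was not tested. The RefSeq mRNA probe of Cd69 lay at a log2 difference from PBS of 0.16 with lpr urine and -0.41 with MRL/MpJ urine, 0.57 apart, whereas the brighter Cd69 probe was higher with both. The second Cd5 probe lay at -0.01 with lpr urine and 0.02 with MRL/MpJ urine, a log2 difference between them of -0.021, which is under the scanner software's error of 0.20.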

How the results depend on the processing

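The counts and medians below are of the 36 T cell genes. The median log2 difference with lpr urine against PBS was -0.53 under array median scaling, -0.41 with normexp, -0.30 with quantile normalisation, -0.36 relative to the receptor complex and -1.13 under spike-in scaling. With MRL/MpJ urine against PBS it was -0.54, -0.40 and -0.30 under array median, normexp and quantile processing and -1.08 under spike-in scaling. Between lpr and MRL/MpJ urine it was -0.077 relative to the receptor complex. The count of higher genes was 1 with either urine under array median scaling, normexp or the mean over probes, and 0 under spike-in scaling. Of all measured genes, 5.6% with lpr urine and 5.58% with MRL/MpJ urine were higher under spike-in scaling. The count of lower genes was 15 with either urine at 1.5-fold and under array median scaling, 20 under spike-in scaling, and 14 with lpr urine relative to the receptor complex. Of all measured genes, 22.9% with lpr urine and 22.5% with MRL/MpJ urine were lower at 1.5-fold, 44% and 41% under spike-in scaling. Relative to the receptor complex 17.1% were lower with lpr urine. Array median scaling moves every gene by -0.39 with lpr urine and -0.37 with MRL/MpJ urine, and its share of all genes was not computed. The shares under normexp and under the mean over probes were not computed either, so counts under these settings have no background beside them. Directions reversed for Cd69 with MRL/MpJ urine on its RefSeq mRNA probe (-0.41) and for Skap1 averaged over its probes (-0.10 with lpr urine and -0.16 with MRL/MpJ urine). The cause was not tested, beyond the shifts that the scalings apply to all genes. No paired analysis was possible because each condition has 1 array. With normexp the calls of the dim genes Foxp3, Il2ra and, with lpr urine, Ubash3a were lost, and so were those of the brighter Lat and Skap1. Under it Cd2, Il2rb, Tcf7, Lef1 and Satb1 passed 2-fold lower with both urines, and Tbx21 with MRL/MpJ urine.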
